A study of Mus musculus with 8 samples.

Results

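The Notch pathway was followed in mouse myoblasts through 10 genes, chosen by symbol among the 42391 gene entries counted: the receptors Notch1, Notch2 and Notch3, the ligands Dll1, Jag1 and Jag2, the target genes Hes1, Hey1 and Heyl, and the inhibitor Numb. All 10 were listed once, with 0 further copies, and all 10 passed the filter on low counts in both cell types. The question was how strongly each gene was expressed in the control cells and whether it changed after knockdown of Septin9, a subunit of the septin cytoskeleton.

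The series holds 8 RNA-seq samples, with 2 replicates in each of 4 groups. C2C12, a mouse myoblast line, was transfected with 50 nM siRNA (100 nM during the first 5 h), kept for 12 h in differentiation medium and lysed 60 h after transfection. Primary myoblasts, grown out of the hindlimb muscle of mice aged 5 weeks and freed of fibroblastic cells by preplating on collagen, were transfected in their own growth medium and lysed 48 h later while proliferating. All cells were WT. Controls were given a non-targeting siRNA, and the cells called Septin9-deficient were given one against Septin9. Strain, number of animals and whether they were pooled are not given in the sources used here.

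Notch signalling runs between touching cells. A ligand on 1 cell binds a receptor on its neighbour, the receptor is cleaved, and its freed intracellular part enters the nucleus, joins the DNA-binding protein Rbpj and switches on genes of the Hes and Hey families, which encode repressors. In skeletal muscle the pathway is known for keeping satellite cells and myoblasts undifferentiated, and Numb, which binds the receptor inside the cell, is known to dampen it.

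The target genes belong to related families that differ in a part of the protein that contacts DNA. The stretch of coding sequence where they part is shown because Hey1 and Heyl, but not Hes1, passed the test after Septin9 knockdown in primary myoblasts. In C2C12 cells Heyl alone of these targets passed. A link between this stretch and the RNA levels was not tested. The capitals mark the codon that encodes proline in Hes1 and glycine in Hey1 and Heyl. Each stretch has 60 coding bases in GENCODE M21 on GRCm38 and spans 1 intron: Hes1 at chr16:30065690-30065881 on the plus strand (exons 1 and 2 of 4), Hey1 at chr3:8666317-8666522 on the minus strand (exons 2 and 3 of 5), and Heyl at chr4:123240177-123241401 on the plus strand (exons 2 and 3 of 5).
Hes1: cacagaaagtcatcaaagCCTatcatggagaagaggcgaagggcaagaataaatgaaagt
Hey1: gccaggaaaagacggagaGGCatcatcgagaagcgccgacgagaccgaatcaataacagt
Heyl: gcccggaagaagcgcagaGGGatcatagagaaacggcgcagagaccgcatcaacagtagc
Hey1 and Heyl had 44 of these 60 bases in common (73.3%), against 35 (58.3%) for Hes1 and Hey1 and 30 (50.0%) for Hes1 and Heyl.

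The RefSeq promoter table for GRCm38.p6 held windows for 7 members, 10 windows in all, from 250 bases before to 50 bases after a transcription start. Both strands were searched for GTGGGAA, the core bound by Rbpj, for CAGCTG, an E-box of the kind bound by myogenic factors, and for the GC box GGGCGG, and overlapping matches were counted. Of all 32851 windows, 6.38% held GTGGGAA, 16.3% held CAGCTG and 35.7% held GGGCGG. Hes1, Hey1 and Heyl had no window, so the promoters of these target genes were not searched. Of the 10 windows of the other members, none held GTGGGAA. Only 2 held CAGCTG, 1 match each: the window of Jag1 and the one at the gene start of Dll1. A further window of Dll1 held no CAGCTG. With GTGGGAA in 6.38% of all windows, its absence from 10 sets the members apart from no other genes. The 150 bases upstream of Dll1 are shown because Dll1 was higher after knockdown in C2C12 cells, and those of Notch2 and Notch3 because these receptors had the lowest fold changes in primary myoblasts. Capitals mark CAGCTG in Dll1 and GGGCGG or its reverse complement in the receptors.
Dll1, chr17:15376933-15377082, minus strand: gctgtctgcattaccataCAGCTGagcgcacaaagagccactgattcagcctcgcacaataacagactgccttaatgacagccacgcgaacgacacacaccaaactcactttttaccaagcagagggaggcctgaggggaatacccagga
Notch2, chr3:98013388-98013537, plus strand: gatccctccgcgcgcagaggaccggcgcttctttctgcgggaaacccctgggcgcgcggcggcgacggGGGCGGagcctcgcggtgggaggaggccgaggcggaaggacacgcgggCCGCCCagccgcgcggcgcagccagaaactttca
Notch3, chr17:32166891-32167040, minus strand: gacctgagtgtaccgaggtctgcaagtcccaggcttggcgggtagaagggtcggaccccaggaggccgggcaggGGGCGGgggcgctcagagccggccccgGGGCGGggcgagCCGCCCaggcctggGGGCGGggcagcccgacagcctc
The stretch of Dll1 had 52.0% G and C and no GC box, whereas that of Notch2 had 75.3% with 2 GC boxes and that of Notch3 had 77.3% with 4. GC boxes were not particular to these receptors: 6 of the 10 member windows held one, those of Notch1, Jag2 and 2 of the 3 of Numb among them. A match of letters does not show that a factor binds.

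The counts of a sample summed to 20898611 to 26869868 in C2C12 cells and to 21133806 to 27223414 in primary myoblasts. Septin9 itself fell by 1.36 on the log2 scale in C2C12 cells and by 1.21 in primary myoblasts. Of the myoblast markers Pax7, Myf5, Myod1, Des, Cdh15 and Myog, 6 of 6 reached at least 1 CPM (counts relative to library size, scaled by TMM) in every sample. The leukocyte markers summed to at most 4.32 CPM and the endothelial markers to at most 6.37 CPM, with Tie1 at 0 counts in all samples. The 5 glial markers summed to at most 2.82 CPM in C2C12 cells. In the control and Septin9-deficient primary myoblasts they summed to 20.1 and 20.9 CPM in replicate 1, most of it Ngfr. In replicate 2 that sum was 5.81 and 9.25 CPM. Replicate 2 of the primary myoblasts stood apart: Col1a1, a collagen of mesenchymal cells, was 242 CPM in its control and 374 CPM in its Septin9-deficient sample, against 6.63 CPM and 4.63 CPM for replicate 1, and Pdgfra, a receptor that marks fibro-adipogenic cells, was 30.8 CPM and 31.7 CPM against 1.00 CPM and 0.857 CPM. The sum over 6 pericyte and smooth muscle markers was higher there too, at 140 and 187 CPM against 75.2 and 78.5 CPM. That sum was 253 to 339 CPM in C2C12 cells. Pdgfrb was higher in replicate 2 (41.9 and 64.3 CPM against 3.21 and 2.36 CPM), as were Rgs5 and Cspg4. Abcc9 went the other way, with 8.59 and 32.8 CPM against 42.8 and 48.1 CPM, and Myh11 and Kcnj8 were below 1 CPM. The 6 fibroblast markers together ranged from 15.3 to 441 CPM in primary myoblasts and from 252 to 265 CPM in C2C12 cells. In such bulk samples, fewer cells of a type and less RNA per cell cannot be told apart.

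In control C2C12 cells, Notch3, Hes1 and Notch2 stood highest among the members when levels were set per length, with means of 24.3, 23.1 and 22.5 CPM per kb of exon. These 3 could not be ordered, since their replicates overlapped. Below them lay Jag2 (14.7 CPM per kb), Dll1 (10.7), Numb (6.56), Heyl (5.94), Notch1 (4.96), Jag1 (1.59) and Hey1 (1.17). Only the steps from Notch2 down to Jag2 and from Notch1 down to Jag1 exceeded the spread of the replicates.

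In control primary myoblasts Hes1 was the highest, with 41.1 and 38.7 CPM per kb in the replicates (mean 39.9). It was followed by Jag2 (20.6 and 22.7), Notch3 (15.3 and 14.96), Dll1 (12.0 and 10.4) and Notch2 (7.04 and 8.63). None of these 5 overlapped its neighbour in the order. Numb (4.78 CPM per kb) and Notch1 (4.19) overlapped each other, as did Heyl (2.57) with Jag1 (2.38) and Jag1 with Hey1 (2.19). Hey1 thus had the lowest mean in both cell types, although it passed the test for a rise in one of them.

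**Figure D1:**
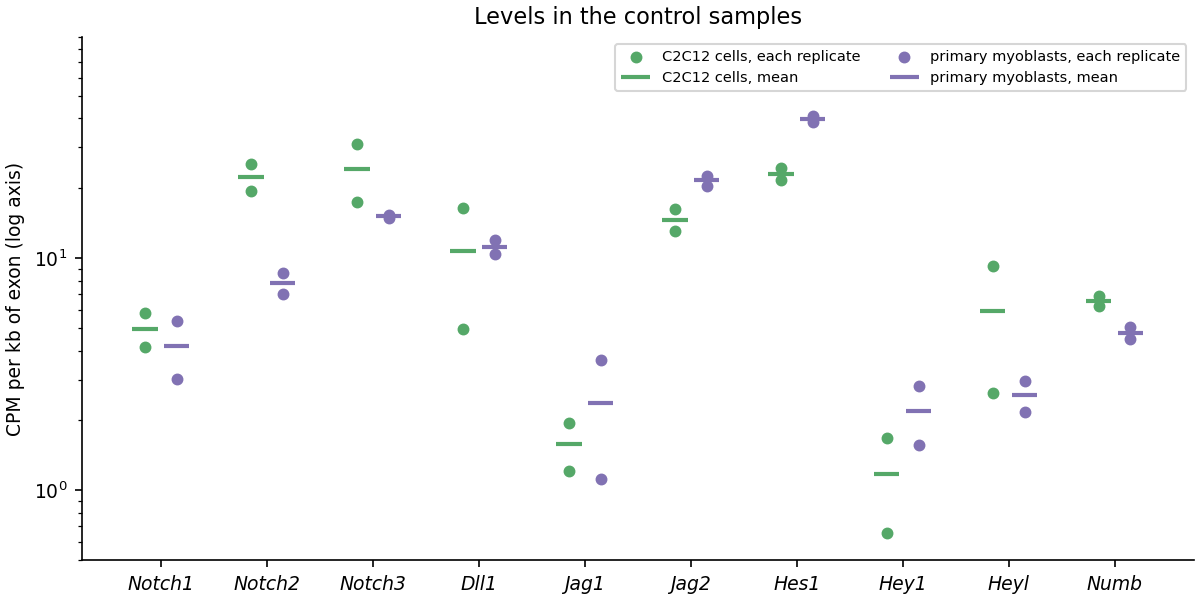
Level of the 10 members in the control samples, in CPM per kb of exon on a log axis. Points are replicates and bars are means of 2. Hes1 stands highest in primary myoblasts, and the replicates of Dll1 and Heyl lie far apart in C2C12 cells, at 4.93 and 16.5 and at 2.62 and 9.27 CPM per kb.

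The 2 control groups were compared across all genes, a comparison in which cell type, medium, hours after transfection and differentiation cannot be told apart. The primary controls, although lysed while proliferating, had the higher levels of muscle differentiation genes: Myog was 1020 and 401 CPM in them against 5.19 and 37.5 CPM in the C2C12 controls, and of the 12 myogenic genes 10 were higher and 0 lower. The part of this in the members' differences was not tested. Of the 10 members 1 was higher and 2 were lower in primary myoblasts (edgeR's quasi-likelihood test, Benjamini-Hochberg adjusted p under 0.05), while 41.7% of the 17918 genes tested passed, 21.6% higher and 20.1% lower. The members' median log2 fold change was -0.09. A call on 3 of 10 members is thus below the share among all genes. With a 1.5-fold threshold added, 2 members (Notch2 and Hes1) and 37.6% of genes passed. Jag2 and Hes1 were higher in both primary controls than in both C2C12 controls, as were 38.3% of genes, and Notch2, Notch3 and Numb were lower in both, as were 36.6%.

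Notch2, a receptor of quiescent and activated satellite cells, had 206 and 266 CPM in the C2C12 controls and 73.9 and 90.7 CPM in the primary controls. Both primary controls lay well below both C2C12 controls, with a log2 fold change of -1.52 ± 0.257 (SE, edgeR adjusted p = 0.00481). As a share of the summed CPM per kb of the 3 receptors, Notch2 made up 40.7 to 47.6% in C2C12 controls and 27.8 to 29.8% in primary controls, whereas Notch3 made up 42.4 to 50.0% and 51.7 to 60.4%. Notch3, also lower in both primary controls (123 and 120 CPM against 140 and 250 CPM), did not pass (log2 fold change -0.68 ± 0.317, edgeR adjusted p = 0.126).

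Hes1, the classical target that represses differentiation genes, had 32.0 and 35.8 CPM in the C2C12 controls and 60.4 and 56.7 CPM in the primary controls. It rose by 0.79 ± 0.146 on the log2 scale without overlap (edgeR adjusted p = 0.00673). Numb had 25.7 and 23.2 CPM against 16.8 and 18.9 CPM and was lower in primary myoblasts, close to the threshold (log2 fold change -0.46 ± 0.151, edgeR adjusted p = 0.0493). That call was lost under 6 of 8 other settings that kept all the controls, with adjusted p from 0.0446 to 0.115 across them.

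Jag2, a ligand, had 83.1 and 66.7 CPM in C2C12 and 105 and 116 CPM in primary controls and narrowly missed the threshold (log2 fold change 0.56 ± 0.189, edgeR adjusted p = 0.0511); it passed under 3 of 8 other settings. Notch1, Dll1, Jag1, Hey1 and Heyl overlapped between the cell types and did not pass. Heyl and Hey1 had opposite signs here, -1.21 ± 0.599 and 0.89 ± 0.586.

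After Septin9 knockdown in C2C12 cells, 2 of the 10 members rose and 0 fell: the ligand Dll1 and the target Heyl. Across the 15814 genes tested, 6.75% passed, 2.64% higher and 4.12% lower. All genes split into 417 higher and 651 lower, and into 716 and 685 when samples were scaled by library size alone. The members' median log2 fold change was -0.01, against -0.00 for all genes. With the 1.5-fold threshold added, 1.57% of genes and 0 members passed. The groups overlapped for every member, whereas 13.1% of genes had both Septin9-deficient samples above both controls and 12.7% had both below.

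Heyl, a Hey-family repressor that Notch switches on in satellite cells, had 12.5 CPM in control 1 and 25.4 CPM in its Septin9-deficient partner, and 42.7 and 51.8 CPM in pair 2. Both Septin9-deficient samples were above their own control, but the groups overlapped because replicate 2 was the higher throughout. The fitted change was 1.49-fold (log2 0.58 ± 0.116 SE, n = 2 pairs, edgeR adjusted p = 0.00418), just below the study's 1.5-fold threshold. Pair 1 carried most of it, with a log2 ratio of 1.02 against 0.28 in pair 2. Leaving out a pair keeps 1 control and 1 Septin9-deficient sample of the cell type, so each such fit took in the 4 samples of the other cell type and its p assumes that the lone samples vary like those. With pair 1 left out the log2 fold change was 0.27 (edgeR adjusted p = 1), and with pair 2 left out it was 1.05 (edgeR adjusted p = 0.000708).

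Dll1, a Delta-type ligand that myoblasts present to their neighbours, had 18.5 and 28.4 CPM in the control and Septin9-deficient samples of pair 1 and 60.0 and 68.3 CPM in those of pair 2. Again both pairs went up while the groups overlapped. The change was 1.28-fold (log2 0.36 ± 0.0874 SE, edgeR adjusted p = 0.0161), with pair ratios of 0.61 and 0.19 on the log2 scale. On the spread of the primary myoblasts, it was 0.17 without pair 1 (edgeR adjusted p = 1) and 0.64 without pair 2 (edgeR adjusted p = 0.0541).

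Hey1 had the largest fold change of the members in C2C12 cells but did not pass. It was counted with only 35, 62, 111 and 147 reads in control 1, Septin9-deficient 1, control 2 and Septin9-deficient 2, or 1.67, 2.98, 4.14 and 6.29 CPM. Each pair went up, by 0.80 and 0.59, and the groups overlapped. The fitted log2 fold change was 0.69 ± 0.209 (edgeR adjusted p = 0.0559), and it passed under 3 of 10 other settings.

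The remaining members did not pass in C2C12 cells. Notch3 had 147 and 168 CPM in pair 1 and 253 and 264 CPM in pair 2, a log2 fold change of 0.13 ± 0.0670 (edgeR adjusted p = 0.326). For the other receptors the log2 fold changes were -0.09 (Notch1) and -0.06 (Notch2), and for the other ligands -0.22 (Jag1) and -0.04 (Jag2). Hes1, with 33.6, 32.3, 36.3 and 38.2 CPM in the same order of samples, had a log2 fold change of 0.01 ± 0.0772 (edgeR adjusted p = 0.969). Numb had -0.09 ± 0.0900.

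**Figure D2:**
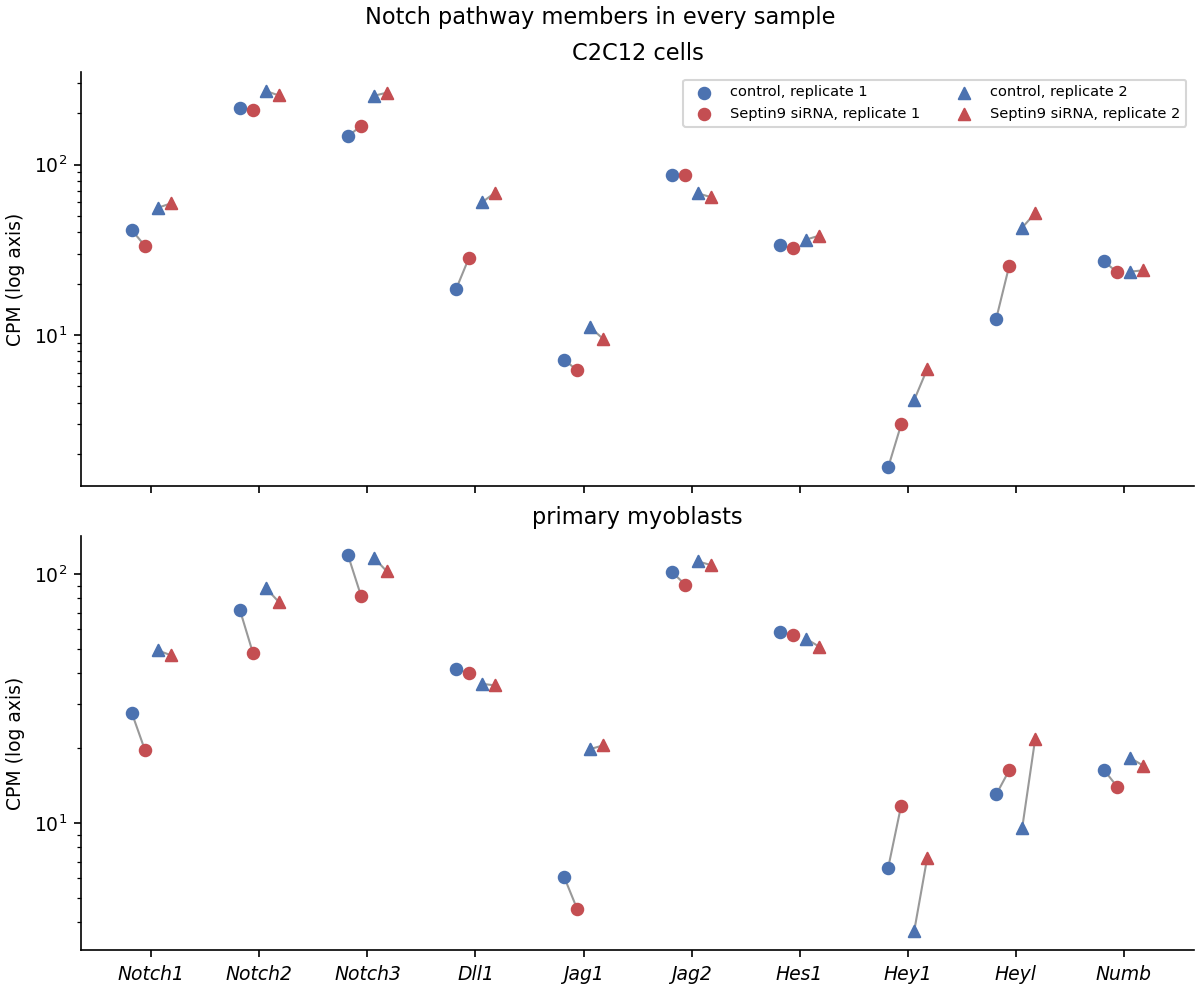
CPM of each member in each sample on a log axis, C2C12 cells above and primary myoblasts below, with circles for replicate 1 and triangles for replicate 2. Lines join the control (blue) to the Septin9-deficient sample (red) of the same replicate. Hey1 and Heyl are higher in the Septin9-deficient sample on all 4 lines.

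In primary myoblasts 2 of the 10 members rose and 0 fell, and both were Hey-family targets. Of 17117 genes tested 4.99% passed, 3.95% higher and 1.04% lower. With the 1.5-fold threshold added, 3.17% passed, and Hey1 and Heyl remained among them. Here the members' median log2 fold change was -0.12, against 0.01 for all genes. A negative sign was found for 8 of 10 members, none of which passed, and for 8272 of the 17117 genes.

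Hey1, a repressor of the same family as Heyl, had 6.63 CPM in control 1 and 11.8 CPM in its Septin9-deficient partner, and 3.68 and 7.22 CPM in pair 2. Both Septin9-deficient samples were above both controls, as for 13.4% of all genes tested. It rose 1.86-fold (log2 0.89 ± 0.179 SE, n = 2 pairs, edgeR adjusted p = 0.00629), by a like amount in each pair (0.82 and 0.96). The log2 fold change was 0.95 with pair 1 left out (edgeR adjusted p = 0.0101) and 0.85 without pair 2, the replicate with the mesenchymal markers (edgeR adjusted p = 0.0135), both on a spread taken from the C2C12 cells. RefSeq places a further protein-coding gene, LOC115489673, over part of Hey1 (chr3:8663359-8667038, GRCm38.p6). Numb likewise overlaps the protein-coding gene Papln, among others, and Notch1, Notch2, Notch3 and Jag2 overlap genes of non-coding RNA. The strand setting of the counting is not given in the sources used here.

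Heyl had 13.1 and 16.3 CPM in pair 1 and 9.56 and 21.8 CPM in pair 2, and the groups did not overlap. It rose 1.69-fold (log2 0.75 ± 0.170 SE, edgeR adjusted p = 0.0138). Here pair 2 carried most of the change, 1.18 against 0.32. Without pair 2 the log2 fold change was 0.34 (edgeR adjusted p = 0.221), and without pair 1 it was 1.17 (edgeR adjusted p = 2.65e-08), where again 1 sample stood against 1 and the C2C12 cells gave the spread. The part of the mesenchymal markers of replicate 2 in the Heyl difference was not tested.

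None of the receptors passed in primary myoblasts, but all 3 were lower in the Septin9-deficient sample of each pair. Dll1, Jag2, Hes1 and Numb were lower in both pairs as well, so this was not particular to the receptors. The share of all genes lower in both of these pairs was not counted. Notch2 had 71.8 and 48.3 CPM in pair 1 and 88.0 and 77.4 CPM in pair 2, so the groups overlapped (log2 fold change -0.38 ± 0.116, edgeR adjusted p = 0.0737). Notch3 had 119 and 82.1 CPM in pair 1 and 116 and 103 CPM in pair 2, so both Septin9-deficient samples were below both controls, as for 14.8% of all genes tested (log2 fold change -0.36 ± 0.116, edgeR adjusted p = 0.0874). Notch1 had 27.7 and 19.7 CPM in pair 1 and 49.4 and 47.3 CPM in pair 2, with overlap (log2 fold change -0.27 ± 0.123, edgeR adjusted p = 0.285).

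Pair 1 held most of the receptors' difference. Without pair 2 the log2 fold changes were -0.47 (Notch1), -0.55 (Notch2) and -0.52 (Notch3), with 1 sample left in each group of primary myoblasts. Without pair 1 the same log2 fold changes were -0.08, -0.21 and -0.20. On the batch-corrected counts recovered from the deposited table, DESeq2 without a block called Notch2 (-0.42, adjusted p = 0.0172) and Notch3 (-0.40, adjusted p = 0.0117) lower. That fit called 744 of 27062 genes, 258 of them lower, against 254 genes for DESeq2 with the block on uncorrected counts. It is among 10 other settings that kept all samples, of which Notch2 passed under 2 and Notch3 under 1.

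The ligands and Hes1 overlapped between the groups of primary myoblasts. Dll1, which rose in C2C12 cells, had 41.7, 40.0, 36.3 and 35.8 CPM in control 1, Septin9-deficient 1, control 2 and Septin9-deficient 2 (log2 fold change -0.04 ± 0.111, edgeR adjusted p = 0.909). Jag2 had -0.11 ± 0.108 and Jag1 -0.14 ± 0.158. Hes1 had 58.6, 57.2, 55.1 and 51.2 CPM in the same order (-0.07 ± 0.107, edgeR adjusted p = 0.819), and Numb 16.3, 14.0, 18.3 and 17.0 CPM (-0.16 ± 0.131, edgeR adjusted p = 0.611).

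Shares of the target genes restate the levels above and were not tested. Hes1 made up 87.7 to 91.2% of the summed CPM per kb of the 3 targets in primary controls and 81.8 to 82.2% in Septin9-deficient primary myoblasts. In C2C12 cells the same shares overlapped, 69.0 to 87.0% and 65.0 to 76.3%.

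**Figure D3:**
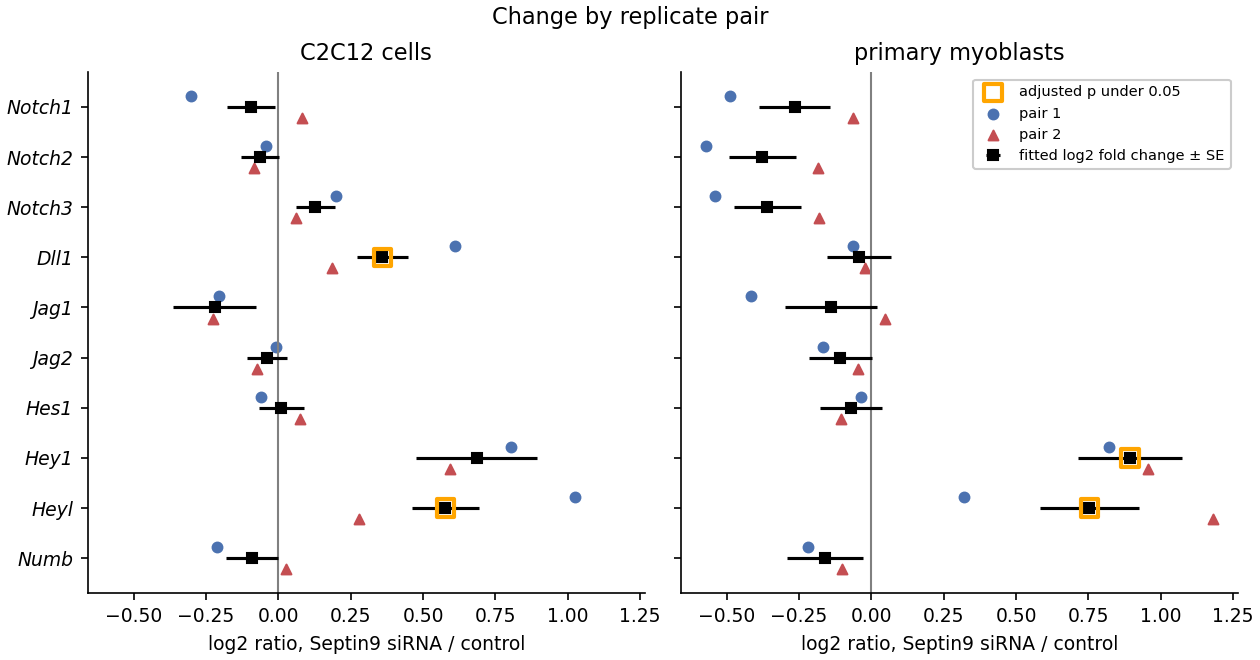
Log2 ratio of Septin9-deficient to control sample in each replicate pair (circles, pair 1; triangles, pair 2) with the fitted log2 fold change and its SE (squares), for C2C12 cells (left) and primary myoblasts (right). Orange frames mark an adjusted p under 0.05: Dll1 and Heyl on the left, Hey1 and Heyl on the right.

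Set side by side, Heyl was the only member called in both cell types, and it rose in both. Its call held under 6 of 10 other settings in C2C12 cells and 5 of 10 in primary myoblasts, where it was lost with RLE factors (edgeR adjusted p = 0.0799), scaling by library size (0.101), one fit of all 8 samples (0.0834), DESeq2 with the block (0.174) and no block (0.999975). In C2C12 cells it was lost with DESeq2, the fit of all 8 samples, no block and the 1.5-fold threshold. Among 15073 genes tested in both, 0.637% rose in both. Hey1 and Heyl were higher in the Septin9-deficient sample in all 4 pairs, as were 12.9% of these genes. Notch2 and Jag2 were lower in all 4 pairs, as were 13.6%, although neither passed in either cell type.

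A test of the difference in knockdown effect between the cell types called 0 of the 10 members and 0% of 17918 genes (edgeR's interaction term), with 1469 genes at an unadjusted p under 0.05 and 17 called by DESeq2. Hey1 and Heyl differed by 0.21 ± 0.248 and 0.14 ± 0.288 between primary myoblasts and C2C12 cells (edgeR adjusted p = 0.875 and 0.961). Hey1 was thus called in one cell type alone without a shown difference between them. The same holds for Dll1, with a difference of -0.42 ± 0.156 (edgeR adjusted p = 0.504).

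**Figure D4:**
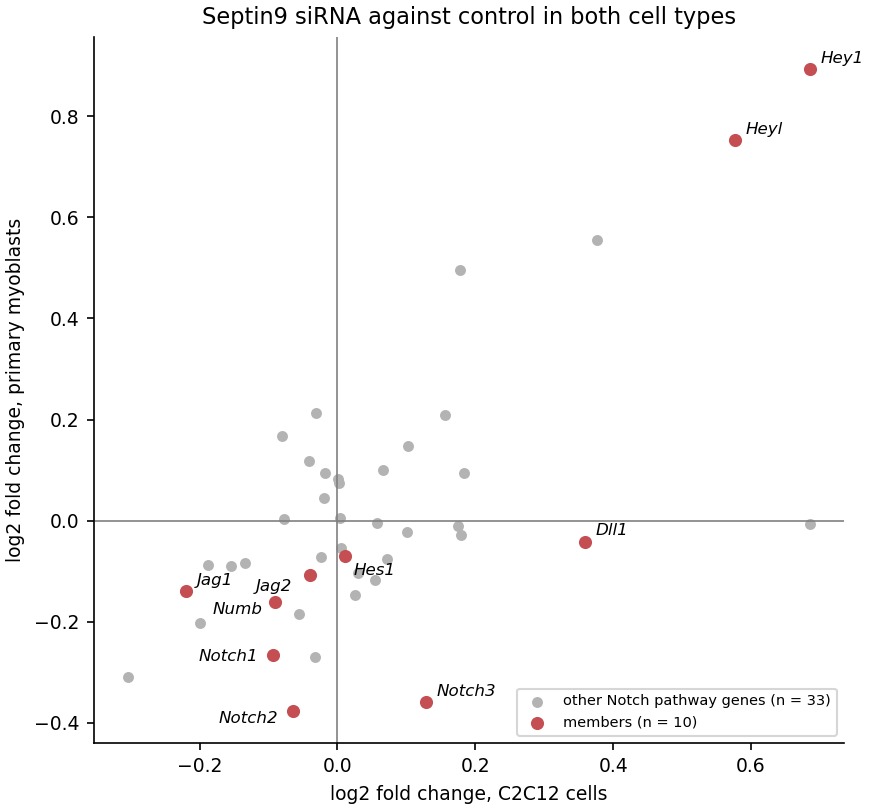
Log2 fold change after Septin9 knockdown in C2C12 cells (horizontal) and primary myoblasts (vertical) for the 10 members (red, named) and 33 other Notch pathway genes tested in both (grey). Hey1 and Heyl lie in the upper right, where the grey points include Neurl1a (0.38 and 0.56) and Hes6 (0.18 and 0.50). Notch1, Notch2 and Notch3 lie below the horizontal line, as do Dll1, Jag1, Jag2, Hes1 and Numb.

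Some members differed more between the replicates of a control group than after knockdown. In C2C12 controls Heyl, Dll1 and Hey1 were higher in replicate 2 than in replicate 1 by 1.77, 1.69 and 1.27 on the log2 scale, and in the Septin9-deficient samples by 1.02, 1.27 and 1.05. Myog, the myogenic factor that marks the onset of differentiation, also differed between replicates 1 and 2, with 5.45 and 38.1 CPM in the controls and 16.4 and 65.2 CPM after knockdown. The part of this difference between replicates in the levels of the targets was not tested.

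In primary myoblasts Jag1 differed most between replicates. It had 6.09 and 4.54 CPM in the samples of replicate 1 and 19.8 and 20.5 CPM in those of replicate 2. Both samples of replicate 2 were above both of replicate 1, and so were the fibroblast markers. Notch1 was likewise higher in replicate 2, by 0.84 in the controls and 1.26 in the Septin9-deficient samples. Hey1 went the other way, at -0.84 and -0.70. So did the differentiation genes: Myog had 990 and 389 CPM in controls 1 and 2 and 1482 and 898 CPM in the Septin9-deficient samples, and the 12 myogenic genes summed to 14417 and 4726 CPM in the controls. The part of the mesenchymal and myogenic genes in these differences was not tested.

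**Figure D5:**
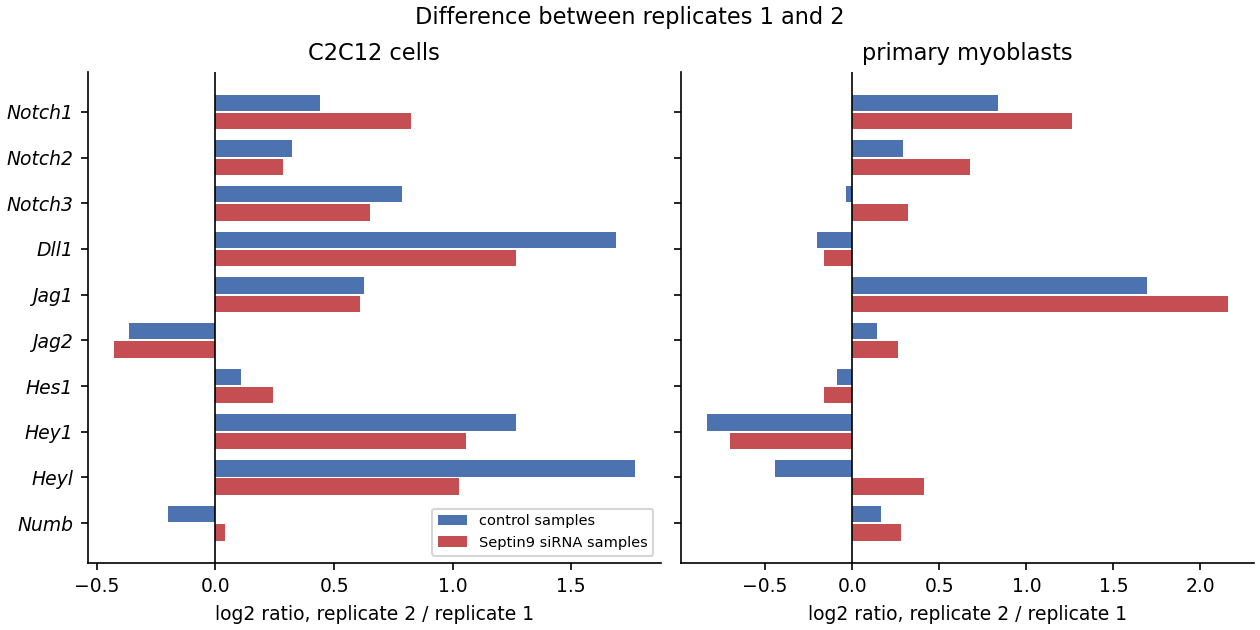
Log2 ratio of replicate 2 to replicate 1 for each member in the control (blue) and Septin9-deficient samples (red), with C2C12 cells on the left and primary myoblasts on the right; the panels have separate horizontal scales. Dll1, Hey1 and Heyl stand out in C2C12 cells and Jag1 and Notch1 in primary myoblasts.

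A fixed list of 45 other Notch pathway genes was read for context, including the cleavage enzymes, the glycosyltransferases, Rbpj with its partners, ubiquitin ligases and further ligands and targets. In C2C12 cells 35 of them were tested, of which 1 rose and 1 fell (6.75% of all genes passed), with a median log2 fold change of 0.00. Neurl1a, a ubiquitin ligase of the Neuralized family that acts on ligands, rose by 0.38 ± 0.0962 (edgeR adjusted p = 0.021). Megf10, a receptor of satellite cells that has been linked to Notch, fell by 0.30 on the log2 scale (SE 0.0659, edgeR adjusted p = 0.00716).

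In primary myoblasts 35 were tested, 2 rose and 0 fell (4.99% of all genes passed), with a median of -0.00. Neurl1a rose again, from 129 to 143 CPM in pair 1 and from 51.7 to 101 CPM in pair 2 (log2 0.56 ± 0.147, edgeR adjusted p = 0.0341). Hes6, a Hes relative that is known to favour differentiation by opposing Hes1, had 643 and 910 CPM in pair 1 and 353 and 496 CPM in pair 2 (log2 0.50 ± 0.131, edgeR adjusted p = 0.0341). Both genes went up in each pair, and the groups of both overlapped. Between the controls 37 were tested, of which 6 were higher and 12 lower in primary myoblasts, where 21.6% and 20.1% of all genes were.

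Myogenic genes moved in the same samples. Of 12 such genes, which include the myoblast markers Pax7 and Myf5, 7 rose and 0 fell in C2C12 cells (median log2 fold change 0.63). Of all genes tested there, 2.64% rose and 4.12% fell. In primary myoblasts 8 of the 12 rose and 2 fell (median 0.81), and the 2 that fell were Pax7 and Myf5. Of all genes tested there, 3.95% rose and 1.04% fell. Of 6 cell cycle genes 5 fell in C2C12 cells (median -0.33) and 1 fell in primary myoblasts (median -0.34). The part of these shifts in the changes of Hey1, Heyl and Dll1 was not tested.

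The calls after knockdown rest on the replicate block, which compares each Septin9-deficient sample with the control of its own number. Without it no gene passed in either cell type (smallest edgeR adjusted p = 0.999987 in C2C12 cells and 0.999975 in primary myoblasts), with 372 and 378 genes at an unadjusted p under 0.05. With only 2 pairs, members that missed the threshold are not shown to be unaffected.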

How the data were processed

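Counts per gene were deposited by the authors without normalization for all 8 samples. They had aligned the reads with STAR 2.7.2 to GRCm38.p6 and counted them with featureCounts 2.0.1. A deposited normalized signal for each cell type, made with ComBat-Seq and DESeq2 1.40.1 size factors, gave whole reads for 100% of values (within 0.05) and served as an alternative. Of the lines 16 were broken and left out, and 0 columns stayed unassigned. The members and lists were chosen with earlier results of these data known. All 10 members are described, and other pathway genes are named where the adjusted p was under 0.05 in a cell type.

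Analysis used R 4.3.3, edgeR 4.0.16 (filterByExpr, TMM, quasi-likelihood test, Benjamini-Hochberg adjustment over all genes tested), DESeq2 1.42.0, Python 3.11.15 and pandas 2.3.3. Each cell type was fitted alone with the replicate number as a block, since the study's methods state independent experiments. Deviations of samples with the same number correlated at 0.678 in C2C12 cells and 0.820 in primary myoblasts. Whether the experiments used separate animals is not stated, so p-values may measure technical spread. The control groups and the interaction were fitted over all 8 samples. Pair ratios are log2 CPM with a prior count of 2. Per-kb levels use TMM over all 8 samples and the union of exons in GENCODE M21. CPM in the comparison of the control groups were also scaled over all 8 samples, and other CPM within a cell type. The CPM of a sample therefore differ slightly between these passages. On simulated data with 200 changed genes, 96% were recovered among 15814 genes in C2C12 cells, 95% among 17117 in primary myoblasts, 92.5% of 17918 for the controls and 79% for the interaction. The planted changes were 1.5 on the log2 scale, larger than any member's fitted change after knockdown. Every gene was given the same spread, and no difference between replicates was simulated. These rates therefore do not give the power for the members. Other settings tried were RLE factors, scaling by library size, dropping the filter, a minimum of 10 counts per sample, no block, DESeq2, one fit of all 8 samples, the 4 controls alone, a 1.5-fold threshold, and each replicate left out (the lone samples then assumed to vary like the other groups); leaving out further copies of genes was added after the data were examined. Depth ranged from 20898611 to 27223414 counts, and 2 replicates per group limit the precision.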

Additional observations from a re-analysis of the deposited data

Results flagged for a closer look

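Notch3 and Dll1 were flagged because both C2C12 pairs rose and both primary myoblast pairs fell, by whatever amount. The test of the difference itself called neither gene. For Notch3 the log2 fold change in primary myoblasts minus that in C2C12 cells was -0.50 (SE 0.138), from 0.13 in C2C12 cells and -0.36 in primary myoblasts. It was up in both C2C12 pairs and down in both primary myoblast pairs. The interaction had an unadjusted edgeR p of 0.00484 and an adjusted p of 0.373, so it fails the correction over 17918 genes. For Dll1 the difference was -0.42 (SE 0.156), from 0.36 in C2C12 cells and -0.04 in primary myoblasts, with an unadjusted edgeR p of 0.0224 and an adjusted p of 0.504. Dll1 was up in both C2C12 pairs (log2 ratios 0.61 and 0.19), against -0.06 and -0.02 in the primary myoblast pairs.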

How the results depend on the processing

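Without the replicate block, with DESeq2 and the block, in one fit of all 8 samples and with a 1.5-fold threshold, 0 members were called higher in C2C12 cells in place of 2, and with a pair left out 0 to 1. In primary myoblasts the 2 members called higher became 0 without the block and with DESeq2 and the block, and 1 with RLE factors, with library size alone and in the fit of all 8 samples (Heyl was lost), or 1 to 2 with a pair left out. Members called lower there went from 0 to 1 with no filter (Notch2) and to 2 with DESeq2 on the batch-corrected counts. Between the controls the number higher went from 1 to 2 with RLE factors, at least 10 counts and DESeq2 (Jag2), and the number lower from 2 to 1 with RLE factors, no filter, at least 10 counts, the 4 controls alone, DESeq2 and the 1.5-fold threshold (Numb), or 1 to 3 with a sample left out. For the difference between cell types, 1 member was lower with no filter (Notch3), and with a pair left out 0 to 1 were higher and 0 to 2 lower. Hes1 in C2C12 cells was -0.0074 with no filter. With a pair left out, log2 fold changes that crossed zero ranged in C2C12 cells from -0.28 to 0.070 for Notch1, -0.19 to 0.014 for Numb, -0.085 to 0.016 for Jag2 and -0.036 to 0.063 for Hes1, and in primary myoblasts from -0.41 to 0.028 for Jag1. Between the controls they ranged from -0.56 to 1.18 for Dll1, -0.71 to 0.11 for Notch1 and -0.49 to 1.20 for Jag1, and for the difference between cell types from -0.37 to 0.017 for Notch1, -0.30 to 0.59 for Heyl, -0.18 to 0.026 for Numb and -0.18 to 0.26 for Jag1. The cause of these shifts was not tested. No scaling turned the direction of a member, and the median of all genes moved by less than 0.1 under each. Across all genes 854 were called in primary myoblasts with TMM, against 295 with RLE factors and 236 with library size alone.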

Other observations

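Hey1 is counted with few reads in C2C12 cells, 35 to 147 per sample, and Heyl with 261 to 1212. Nrarp, a further direct Notch target that feeds back on the pathway, was at 1.57 to 2.53 CPM in C2C12 cells and 0.557 to 1.27 CPM in primary myoblasts, and had log2 fold changes after Septin9 knockdown of 0.06 ± 0.275 and -0.00 ± 0.390 (SE), with edgeR adjusted p of 0.947 and 0.997. Rbpj, the DNA-binding partner of the cleaved receptors, was at 65.5 to 81.9 CPM in C2C12 cells and 127 to 185 CPM in primary myoblasts and was higher in the primary controls by 1.17 ± 0.203 on the log2 scale (edgeR adjusted p = 0.00519), while its log2 fold changes after knockdown were -0.19 ± 0.0753 and -0.09 ± 0.113 (edgeR adjusted p = 0.169 and 0.775). Nrarp and Rbpj were chosen from the pathway list after their values were seen.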
